A study of Mus musculus with 7 samples.

Results

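BMP, GDF and TGF-β ligands, their receptors and their antagonists were examined for chromatin accessibility in mouse epiblast-like cells (EpiLCs) that have or lack Smad2 and Smad3. The set holds 38 genes, listed by name and role, with no measured value in the rule, though with earlier results of these data known, and its members are the accessible sites whose midpoint lies within 50 kb of a transcription start site (TSS) of 1 of these genes. All 38 genes were found in the RefSeq annotation, and together they have 207 of the 75880 sites in the series. Each gene has between 1 and 16 sites, with a median of 5. The windows of Inhbc and Inhbe share 7 sites and those of Gdf2 and Gdf10 share 2, which gives 216 pairs of a site and a gene.

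ATAC-seq, in which the Tn5 transposase cuts and tags open DNA so that reads collect at regulatory elements, was performed on day 2 EpiLCs of 2 genotypes. WT EpiLCs came from the CCE line, XY embryonic stem cells (ESCs) of the 129/Sv//Ev strain, and Smad2/3 DKO EpiLCs came from clone KT15.1F6, in which the promoter and first exon of Smad3 had been removed with a CRISPR nickase from ESCs already homozygous for a Smad2 null allele. Both were grown for 48 h in 20 ng/ml activin A and 12 ng/ml Fgf2, so the Smad2/3 pathway was being stimulated in WT cells, and each genotype was differentiated 3 times with 75000 cells per transposition. One library of Tn5-treated genomic DNA from WT EpiLCs, made from 100 ng, served the authors only in calling sites. Since each genotype is 1 clone, effects of the clone cannot be told apart from those of the genotype.

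The level of a site is the authors' log2 mean of the normalized reads over the 3 differentiations of a genotype, and a difference is the DKO level minus the WT level. The table gives these means and the authors' own comparison, which was not used, and no value per differentiation. No spread, depth per library or test could therefore be computed, and every value below is a description. A site was counted as lower or higher in DKO when its means differed by more than 1.5-fold, which is 0.585 on the log2 scale. A site within 1 kb of a TSS is called a promoter site, and one between 1 and 50 kb away a flank site.

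Ligands of the TGF-β superfamily are secreted dimers that bring together type I and type II receptor kinases. Activin, Nodal, TGF-β and several GDFs signal through Smad2 and Smad3, whereas BMPs signal through Smad1, Smad5 and Smad9, and both branches share Smad4. Noggin, chordin, gremlin and follistatin bind ligands outside the cell and keep them from their receptors. In the early embryo, BMP signals from extra-embryonic tissue and Nodal signals in the epiblast together pattern the embryonic axis.

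The Smad3 promoter site had a level of 5.42 in WT, or 42.8 normalized reads, and was listed at -0.10 in DKO, the lowest DKO level in the table. The Smad2 promoter site was at 8.35 in WT and 8.28 in DKO. Of 8 EpiLC marker genes, 7 had a promoter site, at WT levels of 5.66 to 7.71, and Otx2 had none. Promoter sites were also present at all 7 primitive endoderm, all 6 trophoblast and 4 of 5 fibroblast marker genes, so an open promoter alone did not separate these cell types. The level ran from 3.42 to 9.13 in WT and 3.27 to 8.74 in DKO at the primitive endoderm markers, from 4.55 to 8.69 and 3.86 to 8.52 at the trophoblast markers, and from 4.08 to 7.81 and 4.51 to 7.57 at the fibroblast markers, with Elf5, Thy1 and Twist2 past 1.5-fold, and the part of such cells in the differences below was not tested. Across all sites the overall level had a median of 5.00, with quartiles at 4.14 and 6.13, and the difference had a median of -0.08.

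Of the 207 sites of the ligands, receptors and antagonists, 28 were lower and 11 were higher in DKO. That is 18.8% past 1.5-fold, where 24.5% of all sites were, 16.0% of them lower and 8.51% higher. Their median difference was -0.09, close to that of all sites, and 121 of the 207 differences (58.5%) were negative, where 57.4% of all differences were. When the differences were centred on the median of all sites, the split became 21 lower and 17 higher. At least 1 site was past 1.5-fold at 26 of the 38 genes, with lower sites only at 16 genes, higher sites only at 8, and both at Bmp8a and Acvr1. The share of all genes with such a site was not counted, so these counts cannot be read as particular to the members.

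Most of the large differences lay at weakly accessible sites. In the 76 sites whose higher genotype was under a level of 5, or 32 normalized reads, 22 were lower and 10 higher, which is 42.1% past 1.5-fold where 36.0% of all such sites were, 22.1% of them lower and 13.9% higher. Among the 131 stronger sites, 7 were past 1.5-fold, 6 of them lower and 1 higher, which is 5.34% where 15.2% of all sites at these levels were, 11.0% lower and 4.17% higher. A site is stronger if either genotype reaches 5, a division chosen after seeing the data. The lower sites at Bmpr1b (5.68 and 5.31) and Acvr1 (5.34) reached 5 in WT only. Those at Bmp4, Gdf11 and Fst reached it in both genotypes but were inside 1.5-fold after centring. Without the Bmpr1b sites, 5 of 124 stronger sites were past 1.5-fold, or 4.03%.

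**Figure D1:**
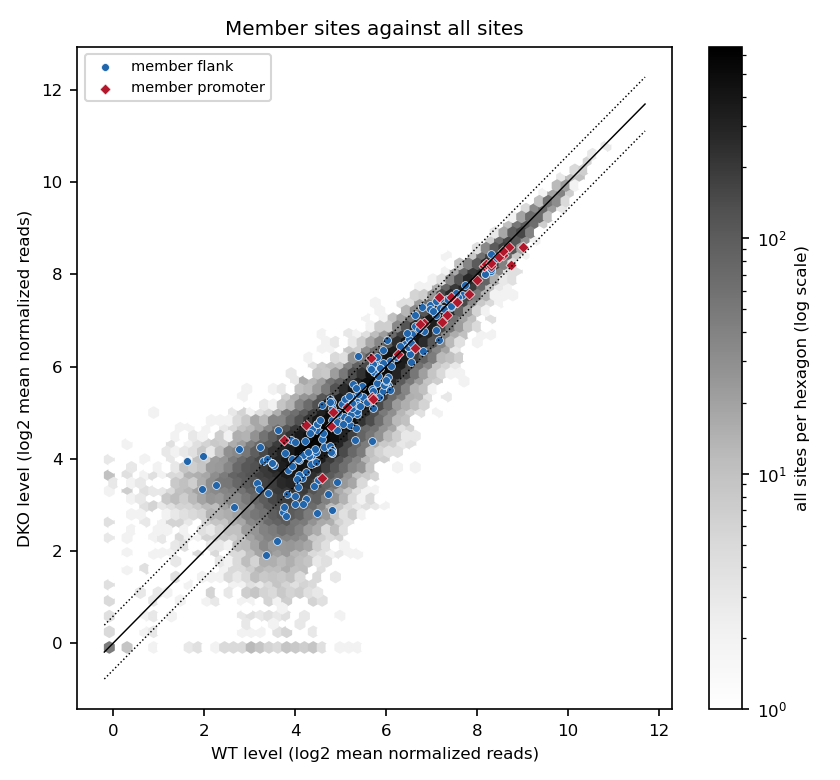
Level of each site in WT (x axis) and DKO (y axis), both as log2 mean normalized reads. Grey hexagons show all 75880 sites on a log count scale, blue circles the flank sites and red diamonds the promoter sites of the 38 genes, and dotted lines mark 1.5-fold; the stronger member sites lie close to the diagonal and the scatter widens under a level of 5.

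The sequences below belong to sites that carry the larger differences at well-covered positions, and to the promoters with the highest levels for which RefSeq gave a sequence outside exons. They come from GRCm38.p6, which has the same coordinates as the mm10 build of the sites. The first pair are the centres of the strongest intronic Bmpr1b sites that were lower in DKO, chr3:141897061-141897360 and chr3:141966371-141966670, both on the plus strand. The Acvr1 sequence, chr2:58551836-58552135 on the plus strand, is the centre of an intronic site that was also lower. The promoters are the 250 bases before a start site of Bmpr1b, chr3:141931589-141931838, and of Grem1, chr2:113758649-113758898, both on the minus strand. Capitals mark exact matches to the 7 motifs searched, which the following paragraph names.
Bmpr1b site, 34 kb downstream of the last TSS: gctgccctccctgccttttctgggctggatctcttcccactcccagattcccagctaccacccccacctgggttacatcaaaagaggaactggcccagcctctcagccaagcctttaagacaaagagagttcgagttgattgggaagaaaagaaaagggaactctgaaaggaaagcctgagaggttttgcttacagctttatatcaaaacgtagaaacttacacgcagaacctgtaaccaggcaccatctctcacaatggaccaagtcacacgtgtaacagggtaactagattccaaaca
Bmpr1b site, 16 kb downstream of the middle TSS: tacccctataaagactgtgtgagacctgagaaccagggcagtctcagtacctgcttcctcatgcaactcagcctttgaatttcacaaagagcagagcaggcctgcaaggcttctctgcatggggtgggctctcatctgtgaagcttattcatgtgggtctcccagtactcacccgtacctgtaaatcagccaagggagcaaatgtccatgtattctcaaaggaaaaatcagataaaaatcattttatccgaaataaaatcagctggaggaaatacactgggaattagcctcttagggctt
Acvr1 site: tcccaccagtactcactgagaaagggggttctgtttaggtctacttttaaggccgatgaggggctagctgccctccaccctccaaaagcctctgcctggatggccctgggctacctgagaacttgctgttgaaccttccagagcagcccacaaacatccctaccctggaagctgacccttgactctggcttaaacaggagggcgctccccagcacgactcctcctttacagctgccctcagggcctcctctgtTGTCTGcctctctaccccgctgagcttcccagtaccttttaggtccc
Bmpr1b promoter: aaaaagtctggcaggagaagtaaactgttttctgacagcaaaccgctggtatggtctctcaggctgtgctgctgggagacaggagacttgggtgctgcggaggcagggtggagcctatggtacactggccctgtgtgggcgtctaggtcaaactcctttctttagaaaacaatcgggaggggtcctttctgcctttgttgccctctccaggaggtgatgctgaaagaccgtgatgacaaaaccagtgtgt
Grem1 promoter: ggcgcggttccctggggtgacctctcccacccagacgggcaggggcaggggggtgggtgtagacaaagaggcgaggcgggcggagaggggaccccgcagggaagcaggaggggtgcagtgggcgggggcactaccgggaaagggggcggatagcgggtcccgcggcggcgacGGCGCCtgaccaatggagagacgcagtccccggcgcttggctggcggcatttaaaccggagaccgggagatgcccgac

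Neither Bmpr1b site nor the Bmpr1b promoter held any of the motifs. The Acvr1 site held the short Smad element CAGACA on the minus strand, read as TGTCTG at position 254 of the sequence. The Grem1 promoter held the GC-rich Smad element GGCGCC at position 173. In 300 bases around each site's midpoint, both strands, CAGACA was present in 20.3% of the 207 member sites and 23.3% of all sites, and in 6 of the 28 lower sites (21.4%). GGCGCC was present in 11.6% of member sites against 9.29% of all sites, in 0 of the 28 lower sites and in 2 of the 11 higher ones. The palindromic Smad element GTCTAGAC, of which CAGACA is not a part, was in 0 of 207 member sites and in 0.224% of all sites. The Foxh1 motif TGTGGATT was in 0.966% against 1.07%, the Oct4 octamer ATGCAAAT in 1.45% against 3.16%, the Otx2 motif GGATTA in 8.21% against 8.71%, and the Tead motif GGAATG in 10.1% against 17.6%. In the 28 lower sites the octamer was in 2 (7.14%), Foxh1 in 0, Otx2 in 1 (3.57%) and Tead in 3 (10.7%). Among 32817 RefSeq promoters, counted over the 250 bases before each start, CAGACA was in 17.1%, GGCGCC in 9.59%, and GTCTAGAC in 0.168%. This window is shorter than the 300 bases of the sites, so promoter and site shares are not directly comparable. A match describes these letters only, and the base composition differed between the sets compared. GC content had a median of 57.67% in member sites, 68% in their promoter sites, 47.17% in the Bmpr1b sites and 51% in all sites.

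Promoters of these genes were mostly open in both genotypes at similar levels. A promoter site was found at 26 of the 38 genes, 31 sites in all, with a median level of 7.23 in WT and 7.12 in DKO. Inha had the 1 promoter site that was lower in DKO and Inhbb the 1 that was higher, together 6.45% of the 31 sites where 7.85% of all promoter sites were past 1.5-fold, 4.17% lower and 3.69% higher. In the 27 promoter sites at a level of 5 or more, the differences lay between -0.54 and 0.52, and 0 were past 1.5-fold, where 4.12% of all such promoter sites were, 2.13% lower and 1.99% higher. The median difference of the 31 was -0.11, with 20 negative (64.5%), whereas all 15001 promoter sites had a median of 0.01, with 48.2% negative.

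Levels were compared between genes only per kb of site width. On that scale the promoter sites at the most downstream and most upstream Bmpr1b TSSs were the highest in WT, at 679 and 385 normalized reads per kb. They were followed by Inhba, Bmp2 at 262, Bambi at 223 and Fst at 204. In DKO these Bmpr1b sites held 467 and 287, Inhba 278, Bmp2 235, Bambi 213 and Fst 185. The Bmpr1b promoter site at the middle TSS held only 122 in WT and 104 in DKO. The lowest of these promoter sites in WT, at Inhbb and Chrd, held 34.5 and 37.8. Without a spread, whether neighbours in this order differ could not be judged.

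**Figure D2:**
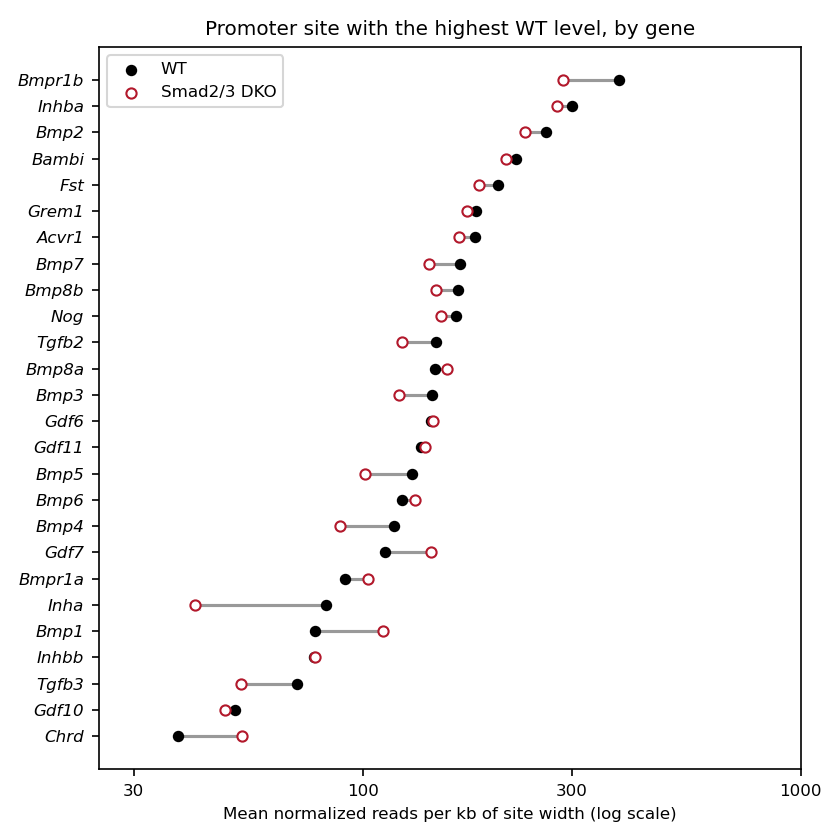
Mean normalized reads per kb of site width (log axis) in WT (black) and Smad2/3 DKO (open red) for the promoter site with the highest WT level at each of the 26 genes that have one, ordered by the WT value. Most pairs lie close together, and Inha, from 82.5 to 41.5, has the widest gap.

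The remaining 12 genes had no promoter site, namely Bmp10, Gdf2, Gdf5, Gdf9, Gdf15, Mstn, Inhbc, Inhbe, Tgfb1, Amh, Bmpr2 and Fstl3. Bmpr2 and Inhbe missed the limit narrowly, with sites 1054 and 1103 bp from their TSS. At Bmp10 the nearest site was 37471 bp away, and at Gdf2 it was 15266 bp away.

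Flank sites numbered 176, with 27 lower and 10 higher in DKO, or 21.0%, where 26.6% of all sites at such distances from a TSS were past 1.5-fold, 16.7% lower and 9.92% higher. Of these 37 sites, 30 had a level under 5 in both genotypes. All 207 sites, promoter sites included, were also divided by whose TSS was closest. Where the member itself was the nearest gene, 17 of 109 sites were lower and 3 higher, and where another gene was nearer, 11 of 98 were lower and 8 higher. All 16 Bmpr1b sites fall in the first class, and without them it had 10 lower and 3 higher of 93. The share past 1.5-fold was 18.3% in the first class, 14.0% in it without Bmpr1b, and 19.4% in the second, all under the 24.5% of all sites. Nearly all promoter sites fall in the first class, so the classes also differ in promoter content.

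At the 25 genes with both kinds of site, the promoter difference was above the median flank difference at 19 and below it at 6. The median of promoter minus flank was 0.13 on the log2 scale, and it ran from -1.08 at Inha to 0.65 at Inhbb. Over the pooled member sites, however, the median difference was -0.11 at promoter and -0.085 at flank sites, and over all sites of the series it was 0.01 and -0.09, so the count of genes cannot be read as particular to them. At 12 genes no site was past 1.5-fold. Of the 29 genes with at least 4 sites, every site had a negative difference at Bmp2, Tgfb2 and Fst, and none had at Tgfb1 and Fstl3. Over all sites 57.4% of differences were negative, and how many genes of the series are one-sided was not counted. The smallest differences at Bmp2 (-0.11), Tgfb2 (-0.13) and Fst (-0.12) were near the median of all sites, -0.08. At Tgfb1 and Fstl3, however, the member was the nearest gene at only 1 site each.

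**Figure D3:**
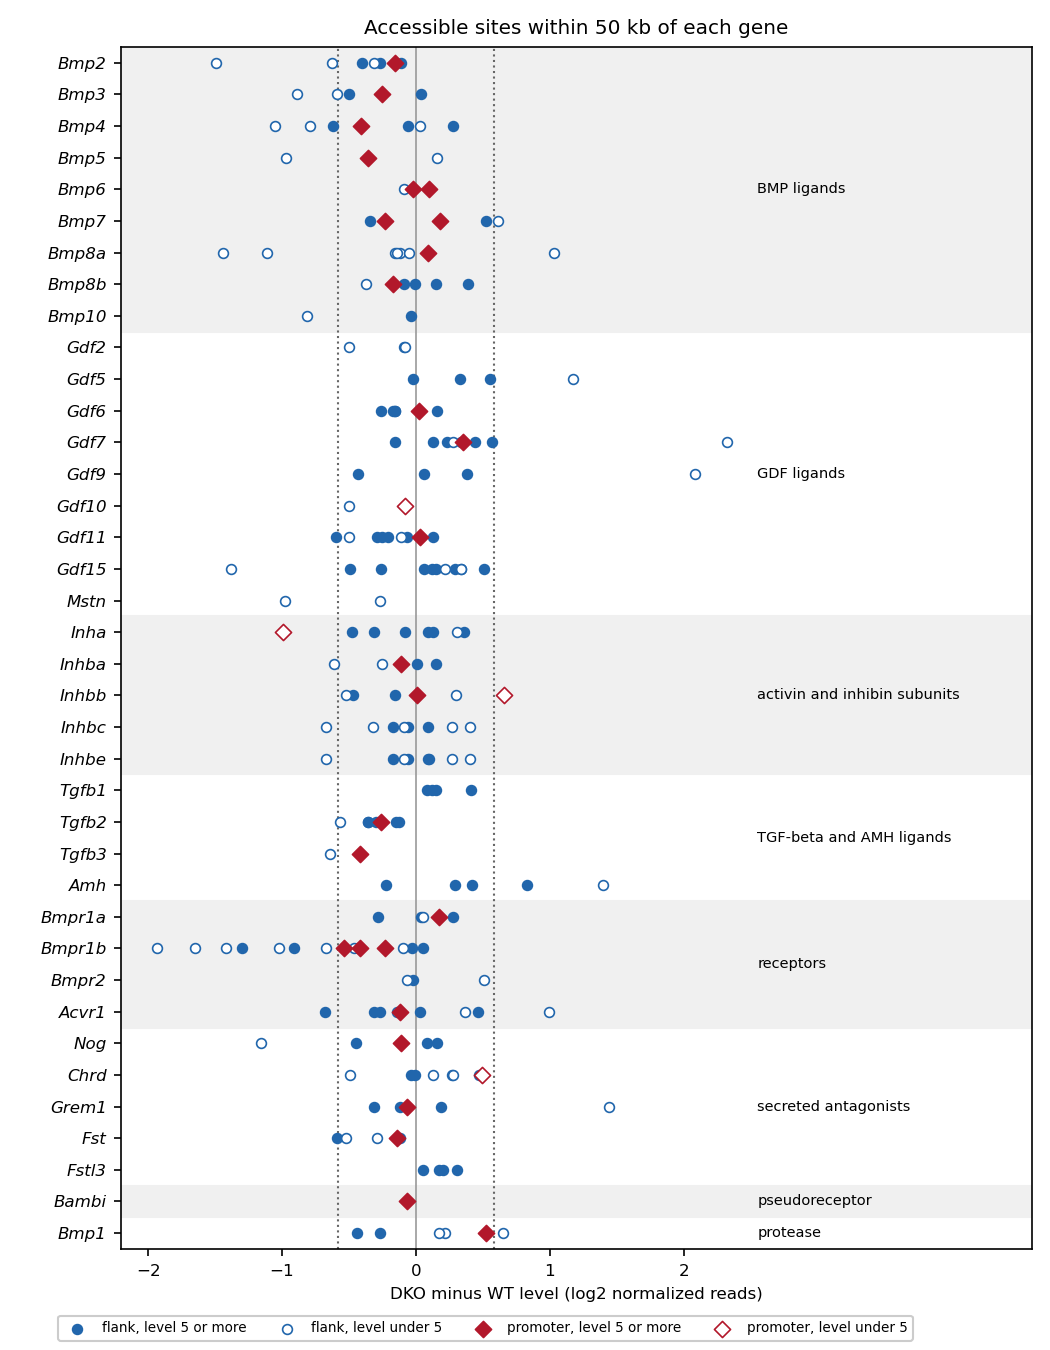
Difference (DKO minus WT, log2) of every site within 50 kb of each gene, with genes grouped by role. Diamonds are promoter sites, circles flank sites, filled marks have a level of 5 or more in the higher genotype, and dotted lines mark 1.5-fold; Bmpr1b has the most marks to the left of the lower line, and most marks beyond either line are open.

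BMP ligands had 46 sites, of which 11 were lower and 2 were higher in DKO, or 28.3% past 1.5-fold where 24.5% of all sites were. Only 1 of the 11 lower and 0 of the 2 higher sites reached a level of 5. Differences were negative at 34 of the 46 sites (73.9%), where 57.4% of all differences were. Bmp4, which in the embryo directs primordial germ cell and mesoderm formation, had 7 sites, 3 of them lower. The strongest of these, 10 kb downstream of the TSS in an intron of the noncoding gene Gm15217 (chr14:46380130-46380810), held 52.7 normalized reads in WT and 34.3 in DKO, a difference of -0.62, which was -0.54 after centring and -0.52 with 8 reads added to both means, neither past 1.5-fold. Its largest difference, -1.05, was at a weak site in its coding exon, with 13.9 reads in WT and 6.73 in DKO. The Bmp4 promoter site held 52.0 and 39.1 reads, a difference of -0.41.

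Bmp2, a close relative of Bmp4, had 7 sites and all were below WT. Its promoter site held 383 reads in WT and 343 in DKO. The site 49 kb upstream was lower, with 26.4 against 9.38 reads and a difference of -1.49. Another, 41 kb downstream and nearer to Mir3090, was lower by less, at 28.1 against 18.1 reads. The smallest Bmp2 differences were at the promoter site and at the site in its coding exon, -0.16 and -0.11.

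The remaining BMP ligands varied in direction. Bmp3, an atypical BMP that can antagonise other BMPs, had 2 lower sites, with differences of -0.89 in its intron and -0.59 at 48 kb. Bmp5 had 1, in an intron 8 kb downstream of the TSS, at 22.8 reads in WT and 11.6 in DKO. Bmp8a, needed for germ cells together with Bmp8b, had 2 lower sites (-1.44 and -1.11) and 1 higher site (1.03), all with fewer than 20 reads, and Bmp8b had 6 sites between -0.37 and 0.39. The Bmp8a site at -1.11 was nearer to Oxct2a, and the one at 1.03 lay in an intron of Macf1. Bmp7 had 1 higher site, at 10.4 against 15.9 reads and nearer to Spo11, while its stronger promoter site held 163 and 139 reads. At Bmp10, a cardiac ligand, 1 of 2 sites was lower, but it was nearer to Arhgap25, and at Bmp6 all 3 sites were between -0.09 and 0.10.

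GDF ligands had 48 sites with 3 lower and 3 higher, or 12.5% past 1.5-fold against 24.5% of all sites. Gdf11, a ligand of axial patterning that signals through Smad2/3, had the 1 strong lower site of the group, 4 kb upstream (chr10:128895440-128896370), with 144 reads in WT and 95 in DKO and a difference of -0.60. It was no longer past 1.5-fold after centring (-0.52) or with 8 reads added to both means (-0.56). Its promoter site held 294 and 300.2 reads. At Gdf7, a ligand of the dorsal nervous system, 8 of 9 sites were above WT, from 144 to 184 reads at the promoter. Gdf7 was the nearest gene at 4 of the 9 sites, and Hs1bp3 at the others. The 1 Gdf7 site past 1.5-fold, in an intron of Hs1bp3, went from 3.10 reads in WT to 15.5 in DKO, the largest positive difference among all 207 sites at 2.32.

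The other GDF differences were at weak sites. Gdf9, an oocyte ligand, had 1 higher site (2.08) in a coding exon of Sowaha, with 3.94 reads in WT, and Gdf5, a joint ligand, 1 (1.17) in Cep250 with 4.79 reads in WT. Gdf15, a stress-induced ligand, had 11 sites and was the nearest gene at 1 of them. Its 1 lower site held 12.1 reads in WT and 4.66 in DKO and lies 321 bp from the TSS of Ssbp4. Mstn, the muscle growth inhibitor, had 1 lower site 46 kb upstream (-0.98), nearer to 1700019D03Rik. Gdf6 had 6 sites between -0.26 and 0.16, and the 3 sites of Gdf2, of which Gdf10 shares 2, lay between -0.50 and -0.08.

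Activin and inhibin subunits, the β and α chains of the dimers that stimulate or block Smad2/3 signalling, had 28 sites with 3 lower and 1 higher, or 14.3% against 24.5% of all sites. At Inha, which encodes the inhibin α chain, the promoter site (chr1:75506350-75506640) held 23.9 reads in WT and 12.0 in DKO, a difference of -0.99. It lies only 43 bp from the TSS of Obsl1, so it can be assigned to either gene. The other 7 Inha sites lay between -0.48 and 0.36. At Inhbb, 1 promoter site (chr1:119422200-119422590) was higher, with 13.5 reads in WT and 21.3 in DKO, but not with 8 reads added to both means (0.45), while the stronger promoter site 803 bp downstream of the TSS held 76.6 and 77.2.

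Inhba encodes the chain of activin A, the factor that was also in the medium of both genotypes. Its promoter site held 357 reads in WT and 331 in DKO, and the intragenic site 5 kb downstream held 138 and 139. The 1 lower site, 6 kb upstream, had a difference of -0.61 at 27.9 against 18.3 reads. Inhbc and Inhbe, neighbours on chromosome 10, shared their 1 lower site (-0.67), which lies in an intron of Arhgap9.

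TGF-β and AMH ligands had 18 sites with 1 lower and 2 higher, or 16.7% against 24.5% of all sites. Tgfb2 was below WT at all 7 sites, from -0.57 to -0.13, without any of them passing 1.5-fold, and its promoter held 150.1 reads in WT and 125 in DKO. Tgfb3 had 1 lower site (-0.64) in an intron of Ift43 and a promoter site at -0.42, whereas the 4 Tgfb1 sites were all above WT, from 0.08 to 0.41. Only 1 of these 4 had Tgfb1 as its nearest gene. The others lay within 133 bp of a TSS of Exosc5, B9d2 or Ccdc97. Amh, which drives regression of the Müllerian duct, had the 1 strong higher site of the whole set. That site (chr10:80798190-80798850) held 41.9 reads in WT and 74.5 in DKO, a difference of 0.83, and lies 106 bp from the TSS of Plekhj1, 6720 bp upstream of Amh. A second, weak Amh site went from 3.86 to 10.2 reads and lies 196 bp from the TSS of Lingo3. Amh was the nearest gene at 0 of its 5 sites.

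Receptors had 33 sites, with 8 lower and 1 higher, or 27.3% past 1.5-fold where 24.5% of all sites were, and 7 of the lower ones were at Bmpr1b. This gene encodes the type I BMP receptor ALK6 and has 4 annotated TSSs on the minus strand of chromosome 3, spread over 238005 bp. Its windows therefore cover more sequence than those of most members, and its 16 sites are the most of any gene. The difference was negative at 15 of the 16, where 57.4% of all differences were, with a median of -0.50 and a range from -1.93 to 0.05.

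The Bmpr1b promoter sites stayed strongly accessible. At the most upstream TSS the level was 519 reads in WT and 388 in DKO, a difference of -0.42. The most downstream promoter site, whose sequence is printed above, held 428 and 294 reads, a difference of -0.54, and the weakest one, at the middle TSS, held 99.7 and 85.0. None of these passed 1.5-fold, although all were below WT. The intronic sites were uneven. Beyond the promoters, the site with the most reads lay 4 kb downstream of the first TSS and held 56.5 in WT and 55.3 in DKO. It is 850 bp wide, and per kb of width it held 66.5 reads in WT. Other intronic sites differed by 0.05, -0.10 and -0.23, less than the main promoter sites. The site at chr3:141897000-141897420, 34 kb downstream of the last TSS, had 51.3 reads in WT and 20.8 in DKO, a difference of -1.30. The site at chr3:141966380-141966660 had 39.7 and 21.1, a difference of -0.91. Per kb of width, these lower sites held 122 and 142 reads in WT, above the 66.5 of the site 4 kb downstream of the first TSS. Another intronic site, at chr3:142130850-142131160 and under a level of 5, had the largest negative difference of the 207 sites, -1.93, with 28.1 and 7.36 reads. Further weak sites had differences of -1.65, -1.42, -1.02 and -0.67.

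Differences around the gene were mostly negative too. Of the 97 sites outside the Bmpr1b windows and up to 1 Mb past the outermost TSSs, 80 had negative differences, where 57.4% of all sites did. Of these 97, 27 were lower, where 16.0% of all sites were, 4 were higher, and the median difference was -0.37. It was -0.34 over 59 sites upstream of the first TSS, -0.40 over 33 sites downstream of the last, and -0.57 over 5 sites between the outermost TSSs but over 50 kb from each. The part of the wider region in the differences at Bmpr1b was not tested.

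**Figure D4:**
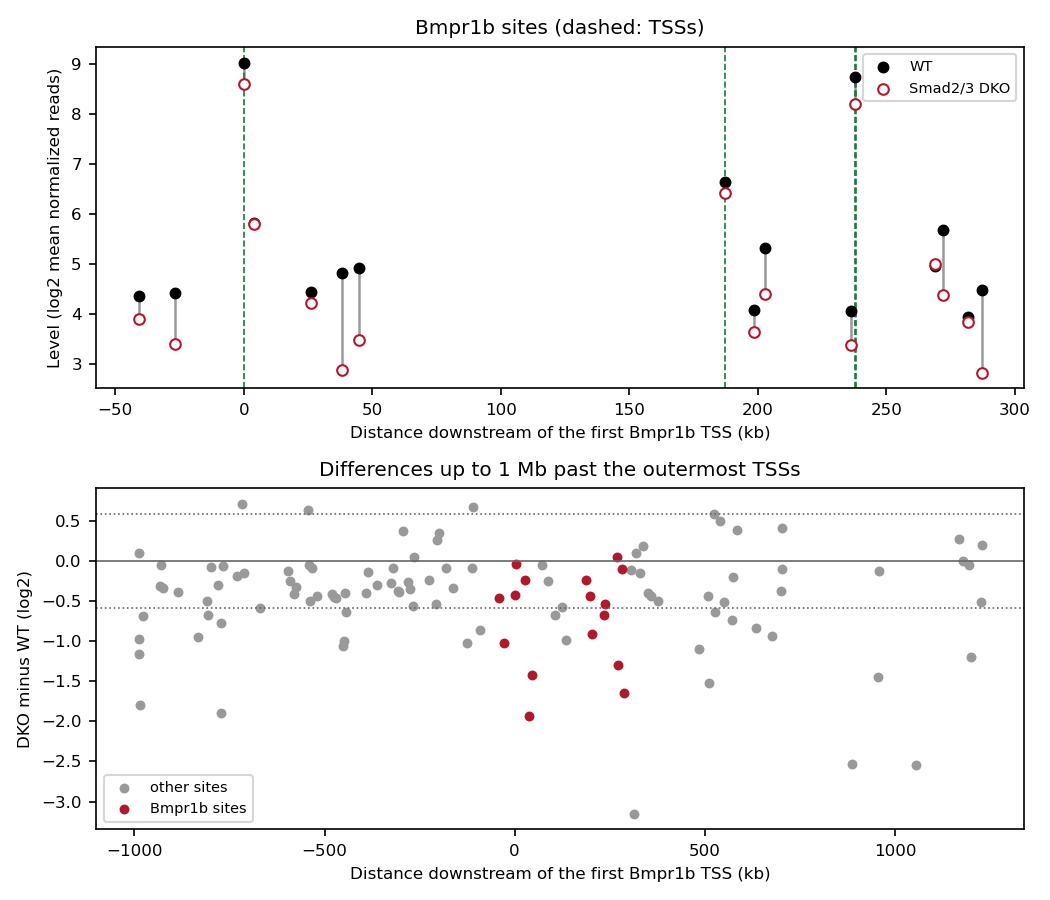
Top, level (log2 mean normalized reads) of the 16 Bmpr1b sites in WT (black) and Smad2/3 DKO (open red) by distance in kb downstream of its first TSS, with dashed lines at the TSSs. Bottom, difference (DKO minus WT, log2) of these sites (red) and of the 97 other sites up to 1 Mb past the outermost TSSs (grey), with dotted lines at 1.5-fold; most red and grey points lie under 0.

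The other receptors had few differences. Acvr1, the type I receptor ALK2, had 9 sites, and its promoter held 256 reads in WT and 236 in DKO. Within its intron, sites of opposite direction lay 2 kb apart, 1 lower (chr2:58551800-58552170) at 40.5 against 25.3 reads, though with 8 reads added its difference of -0.54 was inside the limit, and 1 weaker and higher at 12.4 against 24.6 reads. Bmpr1a, the type I receptor ALK3 that the early epiblast requires, had 5 sites between -0.28 and 0.28, with 108 reads at the WT promoter and 121 in DKO. Bmpr2, the type II BMP receptor, had 3 sites between -0.07 and 0.51, and the one nearest its TSS held 93.1 and 91.8 reads.

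Secreted antagonists had 27 sites with 2 lower and 1 higher, or 11.1% against 24.5% of all sites. Fst encodes follistatin, which binds activin, and all 5 of its sites were below WT. The intronic site 2 kb downstream of the TSS (chr13:114456300-114456830) was lower at 67.6 against 44.9 reads, a difference of -0.59 that lies just past the limit and was inside it after centring and with 8 reads added (both -0.51). The Fst promoter held 319.6 and 290.0 reads. At its relative Fstl3 all 4 sites were above WT, from 0.05 to 0.31. Only 1 of them, at 0.05, had Fstl3 as its nearest gene. The others lay within 273 bp of a TSS of Polrmt, Fgf22 or Rnf126.

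The BMP antagonists had open promoters in both genotypes. Nog, encoding noggin, held 419 reads in WT and 388 in DKO at its promoter, and its 1 lower site, 3 kb downstream, was weak at 18 against 8.06 reads. Grem1, encoding gremlin, held 383 and 365 at the promoter, and its 1 higher site, with 6.77 reads in WT and 18.4 in DKO, lay 40 kb upstream in an intron of Scg5. Chrd, encoding chordin, had a weak promoter site with 18.9 reads in WT and 26.5 in DKO, and its 8 sites lay between -0.49 and 0.49. Bambi, a receptor-like protein without a kinase that blocks signalling, had a single site, its promoter, at 317 and 302 reads. Bmp1, which is a protease that cleaves chordin and not a ligand, had 1 higher intronic site (0.65) and a promoter difference of 0.52.

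Other genes of these pathways were examined with the same windows, as a list of 55 genes that includes the Smads, Nodal and its antagonists, the Id genes, the activin and TGF-β receptors and the latent TGF-β binding proteins. They had 268 sites, with 35 lower and 22 higher, or 21.3% past 1.5-fold where 24.5% of all sites were, and a median difference of -0.06. At levels of 5 or more, 13.4% of their 164 sites were past 1.5-fold, where 15.2% of all sites and 5.34% of those of the ligands, receptors and antagonists were. At Lefty1, a feedback antagonist of Nodal, 5 of 12 sites were lower, among them a site with 103 reads in WT and 13.4 in DKO, and another with 64.4 reads in WT that was listed at the lowest level in DKO. Lefty2 adjoins Lefty1, and the 5 lower sites among its 12 are the same 5 regions.

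Inhibitors and targets within this second list differed in direction. At Smad7, which encodes an inhibitory Smad, all 6 sites were below WT and 2 were lower, the stronger at 79.3 against 49.9 reads. At Id1, a BMP target gene, 4 of 11 sites were higher and 1 was lower, where 8.51% of all sites were higher and 16.0% lower. The strongest of the higher Id1 sites held 43.7 reads in WT and 77.2 in DKO, and those at 0.78 and 0.93 were weak and nearer to Mcts2. Higher sites numbered 1 of 7 at Id2, 1 of 5 at Id3 and 0 of 5 at Id4, which had 1 lower site. Ltbp1, which tethers latent TGF-β to the matrix, was below WT at all 9 sites, 2 of them lower. Its relatives varied, with differences negative at all 3 sites of Ltbp2, at 2 of 5 of Ltbp3 and at 4 of 17 of Ltbp4. At Nodal 1 of 8 sites was higher, with 31.6 reads in WT and 58.1 in DKO. Smad6, the other inhibitory Smad, had 3 sites between 0.07 and 0.39.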

How the data were processed

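Chromatin accessibility was measured in 3 WT and 3 Smad2/3 DKO EpiLC differentiations. Bowtie2 was used by the authors to align read pairs to mm10. Non-unique, blacklisted and duplicate reads were removed (SAMtools), sites were called with DANPOS2 against the genomic DNA library, and DiffBind was run on them. Versions, normalization and any Tn5 shift are not given in the sources used here. The deposited levels are the authors' log2 means of normalized reads per genotype. Columns with the authors' fold, p-value and FDR hold their own comparison and were not used. No column holds a single library, so depth per library, replicate spread and tests could not be computed, and 0 columns of samples were left unused.

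Sites were placed by midpoint on 45755 curated RefSeq transcripts of 26180 genes (GRCm38.p6, 31603 TSSs), and the placement was tested on simulated sites. The 38 genes, the lists and the settings were chosen with earlier results of these data known. Named sites are promoter sites past 1.5-fold, flank sites past it at a level of at least 5, and each gene's largest difference. Genes without such sites are given by range, and values named in addition were chosen after they were seen. Motifs were exact matches in 300 bp of each site and in the 250 bases before each RefSeq promoter's start. RefSeq promoters matched 26 of the 38 genes. Alternatives were other windows, folds, minimum levels, centring, added reads and nearest-gene assignment. Calculations were run in Python 3.11.15 with pandas 2.3.3 and numpy 2.4.6, and plots were drawn in matplotlib 3.10.9.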

Additional observations from a re-analysis of the deposited data

How the results depend on the processing

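Any overlap with the window and a promoter limit of 2.5 kb left 28 lower and 11 higher sites, and all RefSeq transcripts gave 29 and 11. Other limits moved the counts, which were 15 and 5 with a window of 25 kb, 51 and 24 with 100 kb, 53 and 33 with the limit at 0.32 on the log2 scale (41.5% of sites), and 11 and 6 at 2-fold (8.21%). With 8 normalized reads added to both means they were 13 and 7 (9.66%), and with only sites whose nearest TSS was the member's they were 17 and 3, with a median flank difference of -0.16. A minimum level of 4 left 6 higher sites, and centring gave 17 higher sites. A minimum level of 5 and the omission of Bmpr1b were chosen after seeing the data. The first gave 6 lower and 1 higher (5.34%), the second 21 lower and 11 higher. Of the 9 sites named by rule for their level or promoter position, 6 stayed past 1.5-fold after centring (not those of Bmp4, Gdf11 and Fst) and 4 with the added reads (nor those of Acvr1 and Inhbb). No paired analysis was possible because the columns carry no value per differentiation, and leaving out a differentiation was not run for the same reason. A small mean limits what a fold shows, as 30 of the 37 flank sites past 1.5-fold had under 32 normalized reads in both genotypes.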
